A study of Homo sapiens with 4 samples.

Results

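The 10 genes described here are FOS, FOSB, FOSL1, FOSL2, JUN, JUNB, JUND, EGR1, IER2 and IER3. They were chosen by symbol among the 57815 genes of the deposited expression table, and each symbol matched 1 gene. RNA-Seq was done on 2 biological replicates of control cells, the parental population of HCT116, and on 2 of 3′ WRE-Mut cells, a clone of HCT116 in which CRISPR/Cas9 deleted TBE1 on both alleles. HCT116 is an established human colorectal carcinoma line, and TBE1 is the first of a pair of TCF binding elements in the Wnt-responsive enhancer downstream of MYC. All cells grew in the same serum-containing medium without any further treatment. Both 3′ WRE-Mut libraries come from 1 clone, so the deletion cannot be told apart from other differences between that clone and the parental cells. The comparison asks whether the level of these genes differed between the groups.

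Immediate early genes are switched on within minutes of a growth signal or a stress, without new protein synthesis, and for many of them the transcript is lost again soon after. FOS and JUN proteins pair through leucine zippers to form AP-1, which binds DNA at TRE and CRE sites. JUN proteins can pair with each other, whereas FOS proteins need a partner such as JUN. In growth factor signaling, ERK kinases act on the serum response factor SRF and its ETS partners at CArG boxes in the promoters of FOS and EGR1, and JNK kinases act on JUN and ATF2. In colorectal cancer cells, AP-1 and TCF factors work side by side downstream of RAS and Wnt signaling.

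The promoters of these genes share a short motif. Promoters of 8 of the 10 genes, all but FOSL1 and IER3, were found in the RefSeq table (GRCh38.p14). In the 250 bases before the start, the CRE core TGACG was found on either strand in 8 of 8, against 21.2% of 35116 promoters of the same length. The full CRE TGACGTCA, which contains TGACG, was found in JUND (1.65% of all promoters), and CArG boxes in EGR1 (1.16% of all promoters). The TRE TGANTCA, the MYC E-box CACGTG and the TCF motif ATCAAAG were found in 0 of 8 windows, and they occur in 6.57%, 6.34% and 2.26% of all promoters. TGACG was chosen after the sequences had been seen. A match describes letters, not a bound site, and the lack of one concerns this window only. FOS and FOSB are shown because they differed most between replicates, EGR1 because it has a pair of CArG boxes, and JUND because it was the most abundant, with every motif match in capitals:
FOS, chr14:75278578-75278827, plus strand: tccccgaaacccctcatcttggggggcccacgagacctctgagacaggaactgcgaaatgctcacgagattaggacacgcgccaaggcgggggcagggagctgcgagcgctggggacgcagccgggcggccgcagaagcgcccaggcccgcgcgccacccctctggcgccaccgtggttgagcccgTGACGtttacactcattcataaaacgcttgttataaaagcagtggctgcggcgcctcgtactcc
FOSB, chr19:45467746-45467995, plus strand: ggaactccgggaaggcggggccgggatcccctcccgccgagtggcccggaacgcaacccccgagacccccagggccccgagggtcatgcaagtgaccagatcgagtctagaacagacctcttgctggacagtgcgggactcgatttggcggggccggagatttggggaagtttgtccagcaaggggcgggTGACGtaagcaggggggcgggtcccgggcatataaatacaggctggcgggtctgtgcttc
EGR1, chr5:138465229-138465478, plus strand: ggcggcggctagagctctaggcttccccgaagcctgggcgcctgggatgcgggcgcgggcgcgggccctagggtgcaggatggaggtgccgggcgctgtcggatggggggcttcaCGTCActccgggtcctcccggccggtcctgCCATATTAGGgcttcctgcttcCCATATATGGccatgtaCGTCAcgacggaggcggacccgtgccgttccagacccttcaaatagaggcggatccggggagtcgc
JUND, chr19:18281623-18281872, minus strand: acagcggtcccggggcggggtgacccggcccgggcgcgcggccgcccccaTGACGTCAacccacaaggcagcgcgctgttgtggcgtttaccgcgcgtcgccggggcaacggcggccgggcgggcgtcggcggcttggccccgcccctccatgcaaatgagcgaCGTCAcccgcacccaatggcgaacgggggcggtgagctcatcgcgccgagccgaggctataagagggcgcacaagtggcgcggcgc
In FOS the core lies 64 to 60 bases before the start and in FOSB 60 to 56 bases. In EGR1 the CArG boxes lie 105 to 96 and 83 to 74 bases before the start, between cores at 135 to 131 and 66 to 62.

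Levels are in FPKM, fragments scaled to transcript length and to the mapped fragments of the library, so that genes of different length can be compared. Without counts of reads, the depth behind each value is unknown. Each value comes with a lower and an upper bound in the table. For the 10 genes the upper bound lay 47.2% to 188% above the value. Between 26851 and 29356 genes were above 0 in a library. Of 9 markers of intestinal epithelium, 6 had a mean of at least 1 FPKM, CDX1 was at 0 in all libraries, and the summed level was 2621 to 2865 FPKM in control and 1810 to 1920 FPKM in 3′ WRE-Mut libraries. Of the markers found for fibroblasts (5), leukocytes (5) and endothelium (3 of 4 listed), COL1A1 and CD68 had a mean of at least 1 FPKM. The fibroblast markers summed to 14.5 and 17.1 FPKM in control and 21.3 and 28.9 FPKM in 3′ WRE-Mut libraries. Leukocyte markers summed to 40.4 and 42.5 FPKM in control and 69.6 and 70.8 FPKM in 3′ WRE-Mut libraries, and those of endothelium to 0.224 to 0.357 FPKM. Mitochondrial messages made up 35.3% of protein-coding FPKM in control replicate 2 and 18.5% to 23.4% in the other libraries. MYC itself was at 111 and 113 FPKM in the control libraries and 48.0 and 34.2 FPKM in the 3′ WRE-Mut libraries. In bulk RNA, fewer cells with a transcript and less transcript per cell cannot be told apart.

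All 10 genes were expressed in all 4 libraries. By their mean over the 4 libraries the order in FPKM was JUND (488), IER3 (375), JUNB (207), FOSL1 (134), EGR1 (118), FOS (101), JUN (55.5), IER2 (42.0), FOSB (17.2) and FOSL2 (12.4). Among neighbours in this order, IER3 was above JUNB, JUNB above FOSL1 and IER2 above FOSB in 4 of 4 libraries, but the ranges were separate only for IER2 and FOSB. JUND and IER3, EGR1 and FOS, FOS and JUN, and JUN and IER2 changed places between libraries, each being higher in 2 of 4, and FOSL1 exceeded EGR1, and FOSB FOSL2, in 3 of 4. FOS had the widest spread, 11.7-fold from the lowest library to the highest, followed by FOSB with 7.49-fold, while the other 8 genes spread 1.76-fold to 3.04-fold.

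**Figure D1:**
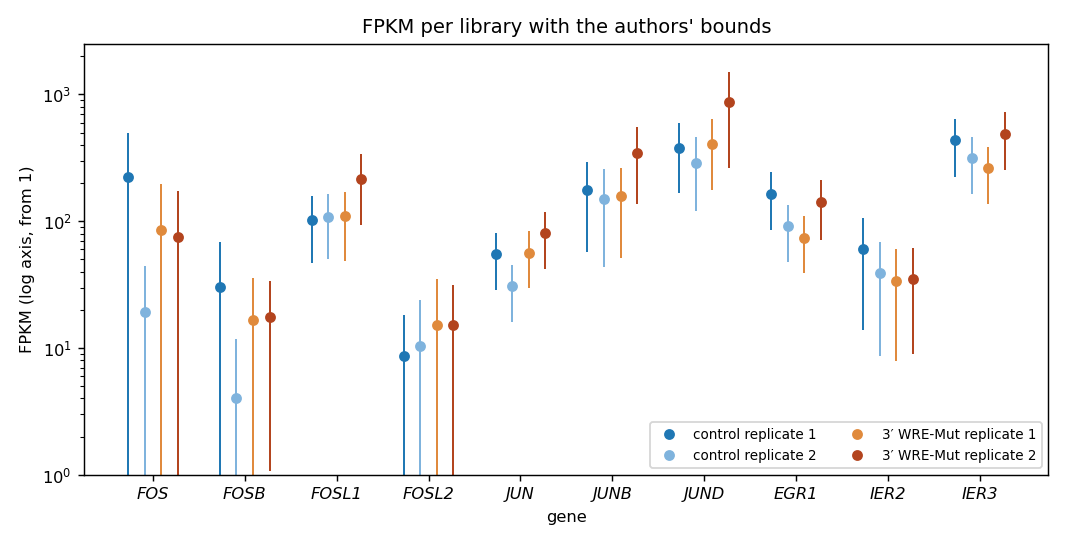
FPKM of the 10 genes (log axis) in the 2 control and 2 3′ WRE-Mut libraries, with vertical lines from the authors' lower to upper bound; bounds under 1 are drawn at 1. FOS and FOSB are highest in control replicate 1 and lowest in control replicate 2, and the bounds of the 4 libraries overlap for every gene.

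FOS, the founding member of its family and an AP-1 subunit whose transcript is very short-lived, lies on chromosome 14 of hg19 from 75745477 to 75748933. It was at 225 and 19.2 FPKM in the control libraries and at 85.9 and 75.5 FPKM in the 3′ WRE-Mut libraries. Both 3′ WRE-Mut values thus lay between the control values. The group means were 122 ± 145 FPKM in control and 80.7 ± 7.36 FPKM in 3′ WRE-Mut cells (SD, n = 2 each), a ratio of 0.662, whereas the mean difference on the log2(FPKM + 1) scale was 0.27 with 3′ WRE-Mut higher. The direction therefore depends on the scale of averaging. The authors' lower bound was 0 in every library, and their upper bound in control replicate 1 was 500.4 FPKM.

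FOSB, a FOS relative with the same partners, followed the same order. Its levels were 30.4 and 4.05 FPKM in control and 16.7 and 17.6 FPKM in 3′ WRE-Mut libraries, so that the 3′ WRE-Mut values again lay between the control values. The deposited locus of FOSB, on chromosome 19 from 45882892 to 45982086, is merged with ERCC1, PPP1R13L and CD3EAP. In the Gencode annotation ERCC1 overlaps FOSB on the opposite strand, so their reads cannot be told apart unless strand was used in counting, which the sources used here do not say.

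FOSL1, which encodes FRA-1, an AP-1 subunit held high by RAS and ERK signaling in many carcinoma cells, lies on chromosome 11 from 65659520 to 65668044. It was at 103 and 108 FPKM in control and 109 and 216 FPKM in 3′ WRE-Mut libraries. One 3′ WRE-Mut library thus stood at the control level and the other at about the sum of both control values. FOSL2, which encodes FRA-2, was lower in all libraries, with 8.67 and 10.4 FPKM in control and 15.2 and 15.3 FPKM in 3′ WRE-Mut libraries. For FOSL2 the groups were separate and the replicates close, although the authors' lower bound was 0 in every library. Its deposited locus, on chromosome 2 from 28607276 to 28640179, also holds a pair of non-coding genes, and an antisense RNA overlaps it.

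The gap between the control replicates in FOS and FOSB was among the widest of all tested protein-coding genes. On the log2(FPKM + 1) scale, control replicate 1 exceeded replicate 2 by 3.48 for FOS and by 2.63 for FOSB. Of 11631 tested protein-coding genes, 1 had a larger gap than FOS (CYP19A1) and 3 had a larger gap than FOSB (CYP19A1, FOS and IER3IP1), and the standard deviation of the gap over these genes was 0.36. For EGR1 the gap was 0.85 and for JUN 0.81, exceeded by 3.11% and 3.66% of genes. Control replicate 1 was the higher for 8 of the 10 genes, the others being FOSL1 and FOSL2, and for 65.0% of all tested protein-coding genes. Among 22 other immediate early genes tested it was the higher for 18, with a median gap of 0.40 against 0.12 over all tested protein-coding genes. The median gap of 9 heat shock genes was 0.23. The mitochondrial share differed between the same libraries (23.4% and 35.3%), and its part in the gap was not tested.

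The 3′ WRE-Mut replicates differed most in JUNB and JUND, and EGR1 had a wide gap in both groups. Replicate 2 was the higher for 9 of 10 genes, all but FOS, against 50.3% of all tested protein-coding genes. The gap was widest for JUNB (1.13), JUND (1.11), FOSL1 (0.98), EGR1 (0.92) and IER3 (0.90), each exceeded by 4.76% to 9.73% of genes. For FOS and FOSB, which separated the control replicates, it was −0.18 and 0.07. The standard deviation of this gap over all tested protein-coding genes was 0.55, wider than between the control replicates.

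**Figure D2:**
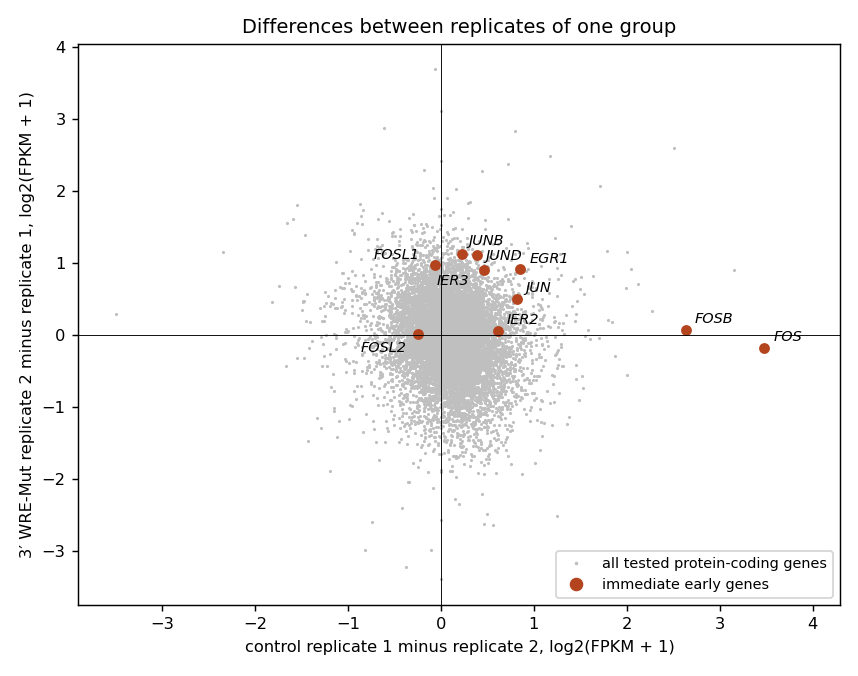
Difference in log2(FPKM + 1) between control replicates 1 and 2 (horizontal) and between 3′ WRE-Mut replicates 2 and 1 (vertical) for the 10 genes and for all 11631 tested protein-coding genes (grey points). FOS (3.48) and FOSB (2.63) stand far to the right and near 0 on the vertical axis, while JUNB, JUND, FOSL1, EGR1 and IER3 lie high.

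JUND was the most abundant gene of its family in every library. It encodes the JUN protein that many resting cells already hold, and lies on chromosome 19 from 18390563 to 18392432. Its levels were 378 and 289 FPKM in control and 406 and 878 FPKM in 3′ WRE-Mut libraries. The lower 3′ WRE-Mut library was near the upper control library, and replicate 2 stood well above all others. JUN, the partner that JNK phosphorylates, lies on chromosome 1 from 59246465 to 59249785 and was at 54.7 and 30.7 FPKM in control and at 56.4 and 80.2 FPKM in 3′ WRE-Mut libraries. Here too the groups did not overlap, by a margin of 54.7 against 56.4 FPKM. JUNB, which can oppose JUN at some promoters, was at 175 and 150.1 FPKM in control and 157 and 345 FPKM in 3′ WRE-Mut libraries, so the groups overlapped. The deposited locus of JUNB, on chromosome 19 from 12873817 to 12985765, is merged with 10 other genes, and HOOK2 overlaps it on the opposite strand in the Gencode annotation.

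As summed FPKM, the FOS family varied in make-up and in amount, and the JUN family in amount. FOS made up 61.3% of the FOS family in control replicate 1 and 13.6% in control replicate 2, against 37.8% and 23.3% in the 3′ WRE-Mut libraries. FOSL1 took the rest for the most part, with 28.1% and 76.1% in control and 48.2% and 66.6% in 3′ WRE-Mut libraries. The family's sum was 366 and 141 FPKM in control and 227 and 325 FPKM in 3′ WRE-Mut libraries, with means of 254 ± 159 and 276 ± 68.8 FPKM (SD, n = 2 each). The JUN family kept its proportions, with JUND at 61.6% to 67.4%, JUNB at 25.4% to 31.9% and JUN at 6.15% to 9.09% in the 4 libraries. Its sum was 608 and 470.2 FPKM in control and 620.2 and 1303 FPKM in 3′ WRE-Mut libraries. The sum in 3′ WRE-Mut replicate 1 was thus close to that in control replicate 1. In every library the JUN family outweighed the FOS family, 1.66-fold and 3.33-fold in control and 2.73-fold and 4.02-fold in 3′ WRE-Mut libraries.

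**Figure D3:**
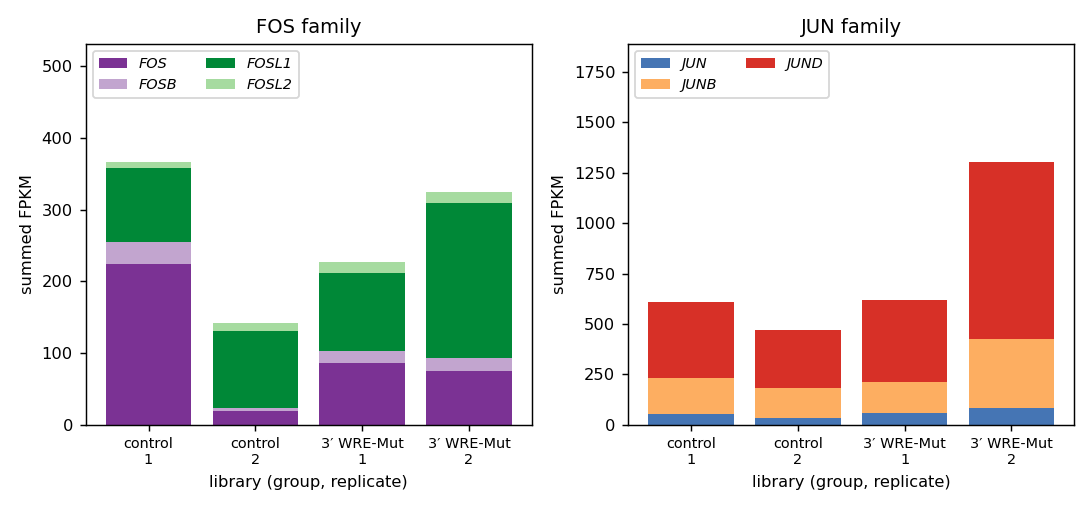
Summed FPKM of the FOS family (left) and the JUN family (right) in each library, with the part of each gene stacked. FOS takes 61.3% of its family in control replicate 1 and 13.6% in control replicate 2, and JUND takes 61.6% to 67.4% of the JUN family throughout.

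EGR1, a zinc finger transcription factor of the immediate early response, overlapped between the groups. It lies on chromosome 5 from 137801179 to 137805004 and was at 165 and 90.9 FPKM in control and 74.1 and 141 FPKM in 3′ WRE-Mut libraries. Each group held a high and a low library. IER3, a stress-inducible regulator of cell survival also known as IEX-1, behaved alike, with 433 and 314 FPKM in control and 262 and 490.0 FPKM in 3′ WRE-Mut libraries. Its group means, 374 ± 84.1 and 376 ± 161 FPKM (SD, n = 2 each), were nearly equal. IER3 lies on chromosome 6 from 30710706 to 30712331, where antisense RNA is annotated. IER2, a nuclear protein of the growth factor response on chromosome 19 from 13261229 to 13265722, was at 60.0 and 38.9 FPKM in control and 34.0 and 35.3 FPKM in 3′ WRE-Mut libraries. It was the only one of the 10 genes with both 3′ WRE-Mut libraries below both control libraries. The deposited locus of IER2 is shared with 1 other gene, and in the Gencode annotation 2 non-coding RNAs overlap IER2 on the opposite strand.

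None of the 10 genes passed the test for a difference between the groups. With limma on log2(FPKM + 1) over all 14815 tested genes, 0 of 10 were called higher and 0 lower at an adjusted p under 0.05, where 0.0877% of genes were called higher and 0.101% lower (0.189% in either direction). The adjustment (Benjamini-Hochberg) limits the share of false calls. In the fit limited to 11631 protein-coding genes limma again called 0 of 10, against 4.02% called higher and 4.31% lower (8.33% in either direction). At an unadjusted limma p under 0.05, FOSL2 was higher over all tested genes (11.0% of all were higher, 11.2% lower), and FOSL2 and JUND were higher among protein-coding genes (14.6% and 15.6%), while 0 of the 10 were lower in either fit. Groups without overlap were seen for FOSL1, FOSL2, JUN and JUND with 3′ WRE-Mut higher, as for 30.9% of protein-coding and 28.7% of all tested genes. IER2 was lower without overlap, as were 32.0% and 30.6% of genes. These 5 of 10 genes compare with 62.9% of protein-coding and 59.3% of all tested genes in either direction. For a single gene the smallest p of an exact two-sided permutation test is 0.333 with 2 libraries against 2.

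The 95% intervals, from the protein-coding fit, show the range of differences that these libraries allow. JUND had a difference of 0.85 (0.03 to 1.67, limma adjusted p = 0.151), JUN of 0.70 (−0.02 to 1.42, adjusted p = 0.174) and FOSL2 of 0.63 (0.05 to 1.20, adjusted p = 0.135) on the log2(FPKM + 1) scale. FOSL1 had 0.54 (−0.18 to 1.27) and JUNB 0.52 (−0.27 to 1.31). For IER2 the difference was −0.47 (−1.07 to 0.13), for EGR1 −0.26 (−1.10 to 0.58) and for IER3 −0.04 (−0.79 to 0.70). The widest intervals were those of FOS, 0.27 (−1.67 to 2.22), and FOSB, 0.53 (−0.995 to 2.05). The median difference of the 10 genes was 0.52, against −0.02 over all tested protein-coding genes. MYC in the same fit had −1.44 (−2.00 to −0.88, limma adjusted p = 0.0216), and its adjusted p was 0.149 in the wider limma fit. Without control replicate 1 or 2 the difference of MYC was −1.45 and −1.43, and the call was lost. Without 3′ WRE-Mut replicate 1 or 2 the difference was −1.68 and −1.20.

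Single libraries decided the direction for 5 genes. With 1 library left in a group, the fit takes its spread from the other group alone, so only differences are given here. Without control replicate 1, FOS was higher in 3′ WRE-Mut cells by 2.01, and without control replicate 2 its difference was −1.47. FOSB turned in the same way, from 1.84 without control replicate 1 to −0.79 without control replicate 2. EGR1 and IER3 became positive without control replicate 1 (0.17 and 0.19) or without 3′ WRE-Mut replicate 1 (0.20 and 0.41), and JUNB was at −0.04 without 3′ WRE-Mut replicate 2. When 3′ WRE-Mut replicate 1 was left out, the difference was 1.41 for JUND, 1.08 for JUNB, 1.03 for FOSL1 and 0.95 for JUN. Without 3′ WRE-Mut replicate 2 the same 4 differences were 0.30, −0.04, 0.06 and 0.45.

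**Figure D4:**
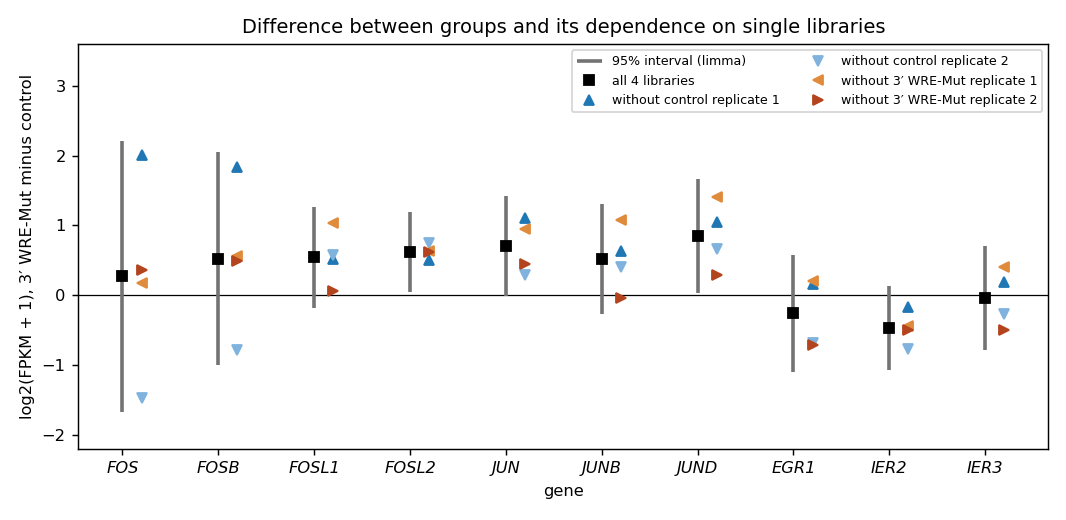
Difference in log2(FPKM + 1) between 3′ WRE-Mut and control cells for the 10 genes (squares) with its 95% interval from limma over protein-coding genes, and the same difference with 1 library left out (triangles). FOS moves from −1.47 to 2.01 with the control library left out, and JUND, JUN, FOSL1 and FOSL2 stay above 0 in all 4 cases.

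Genes that act with or around the 10 were examined in 7 lists, with 92 of 102 genes tested. The lists were drawn up with earlier results of these data known, so their counts are no independent comparison with all genes. In the limma fit to protein-coding genes, 9 of the 92 genes rose and 8 fell, where 4.02% of all genes were called higher and 4.31% lower. The limma fit over all tested genes called 0 of them, with 19 genes higher and 10 genes lower when p was left unadjusted (11.0% and 11.2% of all tested genes), and the verbs below refer to the protein-coding fit. When control replicate 1 was left out, and likewise control replicate 2, the calls of MAFF, ZFP36L1 and PLAUR remained and those of the other 14 genes were lost. When either 3′ WRE-Mut replicate was left out, the fit took its spread from the control replicates alone. Their gap had a standard deviation of 0.36 over protein-coding genes, against 0.55 between the 3′ WRE-Mut replicates. Those fits are therefore a weak check of the 17 calls. With a pseudocount of 0.1, 10 of the 17 remained, the lost calls being JDP2, NR4A3, GADD45B, MAPK8, MKL2, ITCH and ITGA2. Without a filter on low values 0 of the 17 remained in the limma fit. ITCH and ITGA2 also lost their calls with median-ratio scaling and, with MAPK8, without a variance trend, and ITGA2 with a pseudocount of 0.5. EGR3, NR4A3 and VIM were not tested at a minimum mean of 5 FPKM. They passed the minimum mean of 1 FPKM only through the group where they were high. The mean of the other group was 0.228 FPKM for EGR3 (3′ WRE-Mut), 0.834 FPKM for NR4A3 (control) and 0.483 FPKM for VIM (control). The counts of genes that rose or fell include these calls, which the filter favored. Each gene kept its direction in these alternatives wherever it was tested.

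Among dimer partners of the ATF and MAF families, 2 of 10 tested genes rose and 1 fell. Among all protein-coding genes the shares were 4.02% and 4.31%, which also stand beside the counts of the other lists. Because the lists were chosen with earlier results known, these comparisons are descriptive only. MAFF, a small MAF protein, was at 13.4 and 11.5 FPKM in control and 69.8 and 139 FPKM in 3′ WRE-Mut libraries (limma adjusted p = 0.00581). ATF3, a stress-induced partner of JUN, was at 60.4 and 57.4 FPKM in control and 120 and 261 FPKM in 3′ WRE-Mut libraries (limma adjusted p = 0.0361). JDP2, a repressor that pairs with JUN, fell from 23.5 and 21.6 FPKM to 11.4 and 8.89 FPKM (limma adjusted p = 0.0415). For these 3 genes the control replicates were close, unlike those of FOS and FOSB.

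Of 22 other immediate early genes tested, 2 rose and 4 fell (4.02% and 4.31% of all protein-coding genes), with a median difference of 0.29 against −0.02 over all. GADD45B, a growth arrest and stress gene, was at 41.9 and 25.0 FPKM in control and 78.2 and 241 FPKM in 3′ WRE-Mut libraries, and the nuclear receptor NR4A3 was at 0.929 and 0.740 FPKM and at 2.79 and 3.77 FPKM. Among those that fell, ZFP36L1, which promotes the decay of AU-rich transcripts, went from 224 and 206 FPKM to 39.4 and 27.3 FPKM (log2 difference −2.68, limma adjusted p = 0.00307). KLF4, a Krüppel-like factor of differentiated epithelium, fell from 39.4 and 43.6 FPKM to 14.5 and 10.7 FPKM, and PHLDA1, a pleckstrin homology-like protein, from 51.3 and 46.6 FPKM to 19.8 and 13.6 FPKM. EGR3, a relative of EGR1, fell from 1.97 and 1.98 FPKM to 0.298 and 0.158 FPKM. It passed the filter on low values only through the control libraries, and NR4A3 only through the 3′ WRE-Mut libraries.

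Upstream of these genes, MAPK8, which encodes the kinase JNK1, rose as 1 of 20 kinases tested, and 0 fell. Its levels went from 31.3 and 27.3 FPKM to 51.3 and 69.1 FPKM (limma adjusted p = 0.0452). At an unadjusted limma p under 0.05, 4 of the 20 kinases were higher and 0 lower. The shares of all tested protein-coding genes were 14.6% and 15.6%. Of 9 promoter factors, SRF and its cofactor MKL2 rose and 0 fell. At an unadjusted limma p under 0.05, 4 of the 9 were higher and 0 lower. SRF was at 12.8 and 11.6 FPKM in control and 27.1 and 42.8 FPKM in 3′ WRE-Mut libraries (log2 difference 1.41, limma adjusted p = 0.0293), and MKL2 at 3.12 and 2.65 FPKM and at 6.88 and 16.2 FPKM. Of 7 genes of turnover and corepression, ITCH, a ubiquitin ligase that targets JUN proteins, rose and 0 fell. ITCH went from 9.70 and 12.4 FPKM to 21.7 and 24.8 FPKM (limma adjusted p = 0.0468). At an unadjusted limma p under 0.05, 1 of the 7 was higher and 1 lower. The list medians were 0.39, 0.47 and −0.21, against −0.02 over all tested protein-coding genes.

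Among genes that AP-1 is known to activate, 15 of 20 were tested, 1 rose and 2 fell, with a median of 0.08. PLAUR, the urokinase receptor, fell from 79.4 and 85.5 FPKM to 20.8 and 20.5 FPKM (log2 difference −1.94, limma adjusted p = 0.00585). ITGA2, an integrin of collagen binding, fell from 15.3 and 17.2 FPKM to 8.57 and 6.48 FPKM. VIM, an intermediate filament of mesenchymal cells, rose from 0.455 and 0.512 FPKM to 2.67 and 2.48 FPKM. It passed the filter on low values only through the 3′ WRE-Mut libraries. Of 9 heat shock genes HSPH1, a chaperone, fell from 30.6 and 23.8 FPKM to 11.3 and 12.7 FPKM, and 0 rose. At an unadjusted limma p under 0.05, 1 of the 9 was higher and 1 lower (14.6% and 15.6% of all tested protein-coding genes).

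**Figure D5:**
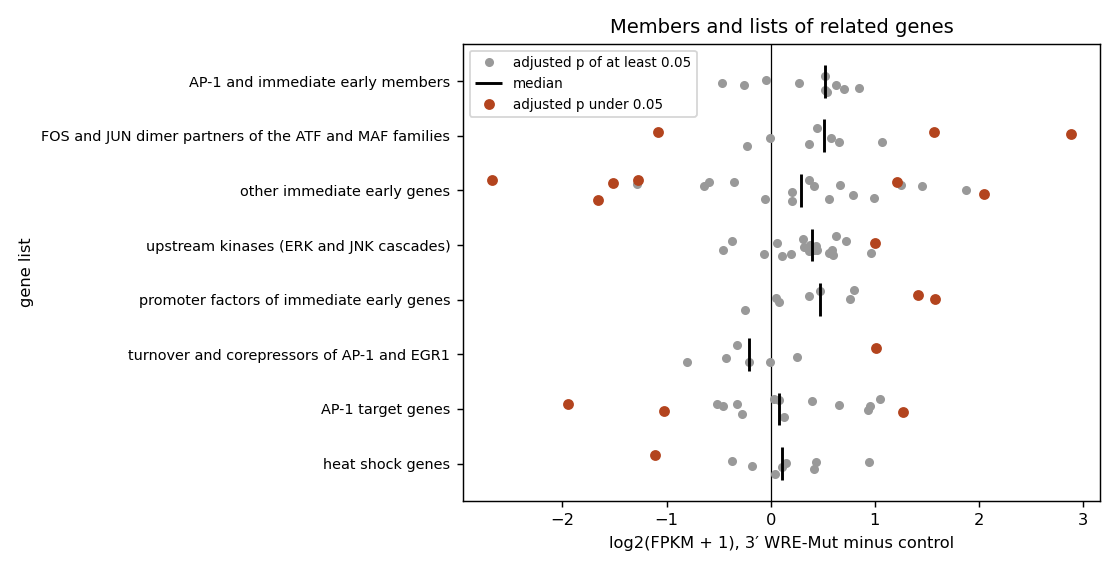
Difference in log2(FPKM + 1) between 3′ WRE-Mut and control cells for the 10 genes and for each tested gene of the 7 lists (points), with the median of each list (bars) and genes past an adjusted limma p of 0.05 among protein-coding genes in red. The 10 genes lie between −0.47 and 0.85 with none in red, while the lists hold 17 red points from −2.68 to 2.89.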

How the data were processed

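RNA-Seq libraries came from 2 biological replicates each of control and 3′ WRE-Mut HCT116 cells. The authors filtered reads by quality (FASTX-Toolkit), used TopHat2 2.0.9 for alignment to hg19 and computed FPKM per library with Cufflinks and Gencode gene models. Cufflinks is given as 2.2.1 in the submitters' processing notes and as an earlier version in the methods. The deposited bounds of each FPKM value are described and entered no test. The authors' second table, with group means, fold changes, p-values and q-values, was not used. Counts and depth per library are not in the table used.

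In R 4.3.3, limma 3.58.1 was fitted with a variance trend to log2(FPKM + 1) of genes averaging 1 FPKM or more, over all tested genes and over those that are protein-coding in Gencode v44lift37 (a class was found for 55535 of 57815 genes). The narrower fit was included because FPKM of short RNAs are very noisy. This was known from earlier results of these data, so the choice of that fit is not independent of them. The alternatives were quantile normalization, median-ratio scaling, pseudocounts of 0.1 and 0.5, a minimum mean of 5 FPKM, no minimum, a constant variance prior, a replicate block and leaving out each library. Named were the 10 genes, MYC and, of each list, the genes past an adjusted p of 0.05 among protein-coding genes. Other genes were named after their values were seen. The genes and lists were chosen with earlier results of these data known. Each limma p-value sets the difference between groups against the spread between these replicates, moderated by the variance trend over genes. Spread between clones is not covered, since both 3′ WRE-Mut libraries come from 1 clone. Figures were drawn with matplotlib 3.10.9 in Python 3.11.15.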

Additional observations from a re-analysis of the deposited data

How the results depend on the processing

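Under the other pseudocounts, filters, scalings and variance prior, limma called 0 of the 10 genes and each kept the direction of its difference. Over all tested genes the count of calls, 28, was 60 with a pseudocount of 0.1, 62 with a mean of at least 5 FPKM and 0 without a filter on low values, where 4677 had an unadjusted limma p under 0.05. Among protein-coding genes it was 969, and 513 with a pseudocount of 0.1 and 1 without a filter. With replicate number as a block limma called 2862 protein-coding genes and 0 of the 10. The numbers are shared only as numbers, with r = 0.11 across genes between the replicate differences of the 2 groups.

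With each library left out in turn, the calls numbered 0 to 194 over all tested genes and 76 to 4334 among protein-coding genes, and the members called higher among protein-coding genes 0 to 4. Without either control library the count over all tested genes was 0, with 1221 and 1187 genes at an unadjusted limma p under 0.05. The log2 difference then ranged from −1.47 to 2.01 for FOS, −0.79 to 1.84 for FOSB, −0.72 to 0.20 for EGR1, −0.49 to 0.41 for IER3 and −0.04 to 1.08 for JUNB (−0.0437 without 3′ WRE-Mut replicate 2). A fit with 1 library in a group takes the spread from the other group. Depth is unknown, and the wide bounds of FOS, FOSB and FOSL2 limit their precision.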

Other observations

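The closest relatives of EGR1, IER2 and IER3 were looked at after their values had been seen. EGR2, a zinc finger factor of the same family as EGR1, was at 4.51 and 2.14 FPKM in control and 1.301 and 0.269 FPKM in 3′ WRE-Mut libraries. Its log2 difference was −1.28 (limma adjusted p = 0.0697 among protein-coding genes). The mean of EGR2 in 3′ WRE-Mut cells was 0.785 FPKM, so it passed the filter on low values only through the control libraries. EGR4 was at 1.39 and 1.17 FPKM in control and 0.305 and 0.210 FPKM in 3′ WRE-Mut libraries, below the mean of 1 FPKM that the test required. The groups did not overlap for EGR2, EGR3 and EGR4, whereas those of EGR1, the only family member above 5 FPKM, did. Among all tested protein-coding genes, 32.0% were lower without overlap. Of the relatives of IER2, IER5 was at 32.0 and 24.8 FPKM in control and 38.5 and 63.3 FPKM in 3′ WRE-Mut libraries (log2 difference 0.79, limma adjusted p = 0.111), and IER5L at 1.53 and 1.47 FPKM and at 0.227 and 0.417 FPKM, also below the test's minimum.

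CYR61 and CTGF, secreted matrix proteins of the immediate early response, shared the wide gap between the control replicates. CYR61 was at 23.8 and 5.22 FPKM in control and 35.3 and 56.1 FPKM in 3′ WRE-Mut libraries, and CTGF at 3.99 and 0.707 FPKM and at 7.06 and 6.96 FPKM. DUSP1, a phosphatase that ends MAP kinase signaling, was at 18.5 and 6.99 FPKM in control and 19.2 and 42.9 FPKM in 3′ WRE-Mut libraries. In contrast to FOS and FOSB, both 3′ WRE-Mut libraries lay above both control libraries for these 3 genes, with limma adjusted p of 0.0646, 0.0762 and 0.113 among protein-coding genes. This was so for 10 of the 22 other immediate early genes tested and for 30.9% of all tested protein-coding genes. Another 8 of the 22 were lower without overlap, as were 32.0% of all tested protein-coding genes.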
